A study of Mus musculus with 15 samples.

Results

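The Serpina3 genes of the mouse encode serpins of clade A, and 5 of them, Serpina3f, Serpina3g, Serpina3n, Serpina3i and Serpina3m, were followed in all 15 pancreas libraries. These 5 members were chosen by name, because the fold change of Serpina3g differed most, in the order by p, between the M46 and the HPK1 experiment. The tables for the HC and KMC experiments each list 49585 genes and hold all 5 members. The table for the MC experiment lists 15175 genes and holds 4 of them, without Serpina3i.

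Serpins are inhibitors that act once: a protease cuts an exposed stretch of the protein, the reactive centre loop, and is trapped in a covalent complex. Humans have a single SERPINA3 gene, which encodes alpha-1-antichymotrypsin, a plasma protein made by the liver in the acute phase response and an inhibitor of cathepsin G and chymase. Rodents have a row of copies in its place. Serpina3n, often taken as the counterpart of the human gene, is secreted and inhibits granzyme B and leukocyte elastase, and is induced by interleukin-6 family cytokines and glucocorticoids. Serpina3g, also called Spi2A, lacks a signal for secretion, remains inside the cell, inhibits lysosomal cysteine cathepsins and is induced by interferon-gamma and NF-kappaB in T cells and macrophages. Less is known of Serpina3f, Serpina3i and Serpina3m.

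All mice were C57BL/6, the tissue was whole pancreas, and each library was a pool of 3 mice. In the MC experiment, 3 libraries from M46 Bac-cre mice, given in the labels as HPK1-M46 transgenic, were set against 3 from B control mice, all at 2 months of age. In the HC experiment, 3 libraries labelled HPK1/B were set against 2 labelled WT, all at 4 months. The mice of these 4 groups had received cerulein, a cholecystokinin analogue that provokes acute pancreatitis. In the KMC experiment, 2 KMC libraries from mice of 9 months were set against 2 KC libraries from mice of 15 months, and the study describes these as pancreatic cancers. Both groups carried Bac-cre and a tumour-driving allele, and KMC carried M46 in addition. HPK1 (gene Map4k1) is a kinase best known in blood cells, and M46 is its kinase-dead form. Bac-cre is a tamoxifen-inducible Cre under the elastase promoter, which is active in acinar cells, and both transgenes lie behind a stop signal that this Cre removes, so that the mice keep their own Map4k1. Whether the WT controls of the HC experiment carried the Cre, and whether the KC and KMC mice received cerulein, is not given in the sources used here.

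The 5 genes lie side by side on chromosome 12 on the plus strand (GRCm38). Serpina3f (ENSMUSG00000066363) spans chr12:104214544-104221129, Serpina3g (ENSMUSG00000041481) chr12:104236245-104241939, Serpina3i (ENSMUSG00000079014) chr12:104263122-104269372, Serpina3m (ENSMUSG00000079012) chr12:104338486-104394257 and Serpina3n (ENSMUSG00000021091) chr12:104406729-104414329. The pseudogene Serpina3h lies between Serpina3g and Serpina3i. Serpina3k shares its annotated start with Serpina3m. The members differ most where they meet the protease, so the coding bases of the reactive centre loop are shown for each, 5′ to 3′, with capitals at the bases that differ from Serpina3n.
Serpina3n (chr12:104413448-104413522): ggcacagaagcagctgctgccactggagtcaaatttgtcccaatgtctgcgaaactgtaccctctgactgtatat
Serpina3g (chr12:104241072-104241146): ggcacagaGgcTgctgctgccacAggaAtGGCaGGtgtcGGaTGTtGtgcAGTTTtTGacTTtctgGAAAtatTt
Serpina3f (chr12:104220245-104220322): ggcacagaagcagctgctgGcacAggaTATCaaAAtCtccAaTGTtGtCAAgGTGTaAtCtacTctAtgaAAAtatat
Serpina3i (chr12:104268480-104268554): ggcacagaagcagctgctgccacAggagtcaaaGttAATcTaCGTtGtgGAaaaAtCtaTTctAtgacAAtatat
Serpina3m (chr12:104393769-104393843): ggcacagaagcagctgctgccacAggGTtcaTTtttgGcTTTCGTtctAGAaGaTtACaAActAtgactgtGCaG
All 5 stretches lie in the last exon of their transcript. Of these bases, 19 differed from Serpina3n in Serpina3i, 25 in Serpina3m, 28 in Serpina3f and 29 in Serpina3g. The first bases of the loop were nearly alike in all of them, and the differences gathered after this hinge, in the part that includes the bond the protease cuts. Each stretch was found by a short amino acid pattern at its start, so part of the likeness there was fixed by the search.

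Over whole transcripts, Serpina3f and Serpina3g were the closest pair, identical at 88.5% of aligned bases, followed by Serpina3g and Serpina3i at 86.4%. Serpina3g and Serpina3n were identical at 77.6%. Of all 100-base windows of the Serpina3g transcript, 4.64% occurred without mismatch in the transcript of another gene, namely Serpina3e-ps, Serpina3f, Serpina3h, Serpina3i or Serpina3n. The share was 3.58% for Serpina3f, 2.33% for Serpina3i, 0.204% for Serpina3n and 6.09% for Serpina3m, whose shared windows all matched Serpina3k. How the authors' counting treated reads with several matches is not given in the sources used here, so the counts of Serpina3f, Serpina3i and Serpina3m, which are low, are uncertain to that extent.

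Serpina3f, Serpina3g and Serpina3n were higher in the MC and lower in the HC experiment, so the 250 bases before their start, and before that of Serpina3i, are shown from RefSeq (GRCm38.p6). Capitals mark matches to the letters TTCNNNGAA, the GAS element of interferon-gamma signalling, and to a kappaB element, GGG and TTTCC with any 2 bases between them. Both strands were searched, and no match overlapped another.
Serpina3g (chr12:104235897-104236146): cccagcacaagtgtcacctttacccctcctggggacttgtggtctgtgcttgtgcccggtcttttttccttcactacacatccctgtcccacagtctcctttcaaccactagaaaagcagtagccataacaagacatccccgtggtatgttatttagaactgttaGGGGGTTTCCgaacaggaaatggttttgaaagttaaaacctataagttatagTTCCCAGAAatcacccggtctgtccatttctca
Serpina3f (chr12:104214294-104214543): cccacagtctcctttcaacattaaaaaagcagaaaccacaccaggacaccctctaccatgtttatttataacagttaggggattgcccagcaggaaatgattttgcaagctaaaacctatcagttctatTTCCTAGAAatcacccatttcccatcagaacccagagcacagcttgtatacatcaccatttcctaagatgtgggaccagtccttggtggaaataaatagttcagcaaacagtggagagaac
Serpina3i (chr12:104262872-104263121): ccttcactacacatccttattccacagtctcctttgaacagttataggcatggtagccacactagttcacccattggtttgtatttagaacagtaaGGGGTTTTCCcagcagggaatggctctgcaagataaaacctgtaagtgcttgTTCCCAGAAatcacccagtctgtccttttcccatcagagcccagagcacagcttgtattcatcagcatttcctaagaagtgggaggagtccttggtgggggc
Serpina3n (chr12:104406458-104406707): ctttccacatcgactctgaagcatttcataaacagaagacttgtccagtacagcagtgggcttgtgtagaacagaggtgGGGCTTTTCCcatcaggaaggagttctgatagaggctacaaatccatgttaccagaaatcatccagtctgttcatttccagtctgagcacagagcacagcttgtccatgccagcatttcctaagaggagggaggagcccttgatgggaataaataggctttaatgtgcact
A GAS match was found in Serpina3f, Serpina3g and Serpina3i, 121, 33 and 102 bases before the RefSeq start, and not in Serpina3n. For Serpina3g the bases shown end at 104236146, whereas the gene span given above begins at 104236245. A kappaB match was found in Serpina3g, Serpina3i and Serpina3n and not in Serpina3f. Of 32851 mouse promoters of that length, 7.02% held the GAS letters and 1.41% the kappaB letters. The interferon element, GAAA and GAAA with any 2 bases between them, present in 2.98% of promoters, was in none of the 4. The GAS match stood in a longer run, TTCCNAGAAATCACCC, which 4 promoters of the table hold: those of Serpina3g and Serpina3i, and both annotated starts of Serpina3f. Counted from the first base of that run in Serpina3g, Serpina3f differed by C5T and Serpina3n by C3A and C14T. These letters were chosen with the sequences in view, and a match does not show that a factor binds there.

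The libraries held 29766575 to 38745907 counts, so that 3 counts correspond to 0.0774 to 0.101 CPM, the count scaled to the depth of its library. CPM values below are scaled by TMM within each table, and levels in different tables were not tested against each other. The targeted gene was read first. Map4k1 was at 6.79 to 8.31 CPM in MC against 2.34 to 4.14 in their controls, and at 5.92 and 11.4 in KMC against 0.544 and 1.55 in KC. The libraries labelled HC held 5.05 to 7.92 CPM of it, below the 11.5 and 15.4 of their controls. Whether the transgene is counted as Map4k1 is not given in the sources used here, and these are called the libraries labelled HC throughout. Per count of Ptprc, the leukocyte gene, Map4k1 was at 0.117, 0.144 and 0.162 there and at 0.132 and 0.159 in the controls, which overlapped. On this scale MC overlapped too, at 0.217, 0.166 and 0.143 against 0.284, 0.209 and 0.278 in their controls. KMC was at 0.177 and 0.194, against 0.174 and 0.154 in KC. Sex was read from Xist and Ddx3y, and could not be read for MC and their controls, where neither gene had a value. By these genes, the third library labelled HC came from males and the other 4 of that table from females. Both KMC libraries came from females and both KC libraries from males. The KMC and KC groups thus differed in sex and age as well as in M46, and the parts of these cannot be told apart. The pancreas label was checked by 16 acinar genes, which took 26.7% to 42.7% of all counts in the MC experiment, 3.88% to 5.89% in the HC experiment, 46.3% and 51.7% in KC and 18.0% and 36.3% in KMC.

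In the MC experiment, every listed Serpina3 member was higher in all 3 MC libraries than in any control library. Serpina3g, the intracellular cathepsin inhibitor, had 18, 13 and 11 counts in the controls and 212, 168 and 178 in MC. In CPM it was at 0.595, 0.387 and 0.494 in the controls and at 7.17, 3.95 and 4.39 in MC. The lowest MC library was thus several fold above the highest control. Its log2 fold change was 3.38 (SE 0.34), a ratio of 10.4. Serpina3f, the nearest relative of Serpina3g by sequence, had 2, 4 and 5 counts in the controls and 24, 57 and 59 in MC, with a log2 fold change of 3.18 (SE 0.50). Its control libraries were near the limit of 3 counts.

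Serpina3n, the secreted inhibitor of granzyme B, was the most abundant member and had the smallest fold change. It was at 31.2, 82.9 and 39.2 CPM in the controls and at 83.2, 134 and 87.3 CPM in MC. The second control lay just below the lowest MC library, and the log2 fold change was 0.99 (SE 0.37). Without that control library it was 1.52. Serpina3m had 5, 5 and 2 counts in the controls and 18, 54 and 26 in MC, with a log2 fold change of 2.58 (SE 0.50). The MC contrast is part of what chose the members, so these values are a description and carry no test. Of all 13902 genes tested there, 10.9% were likewise higher in all MC libraries than in all controls. Among all genes tested, Serpina3g stood first in the edgeR order by p and 37th by size of the fold change. With DESeq2 it was at place 2 by p and 56 by size. This contrast is part of what chose it, so these places are no support.

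**Figure D1:**
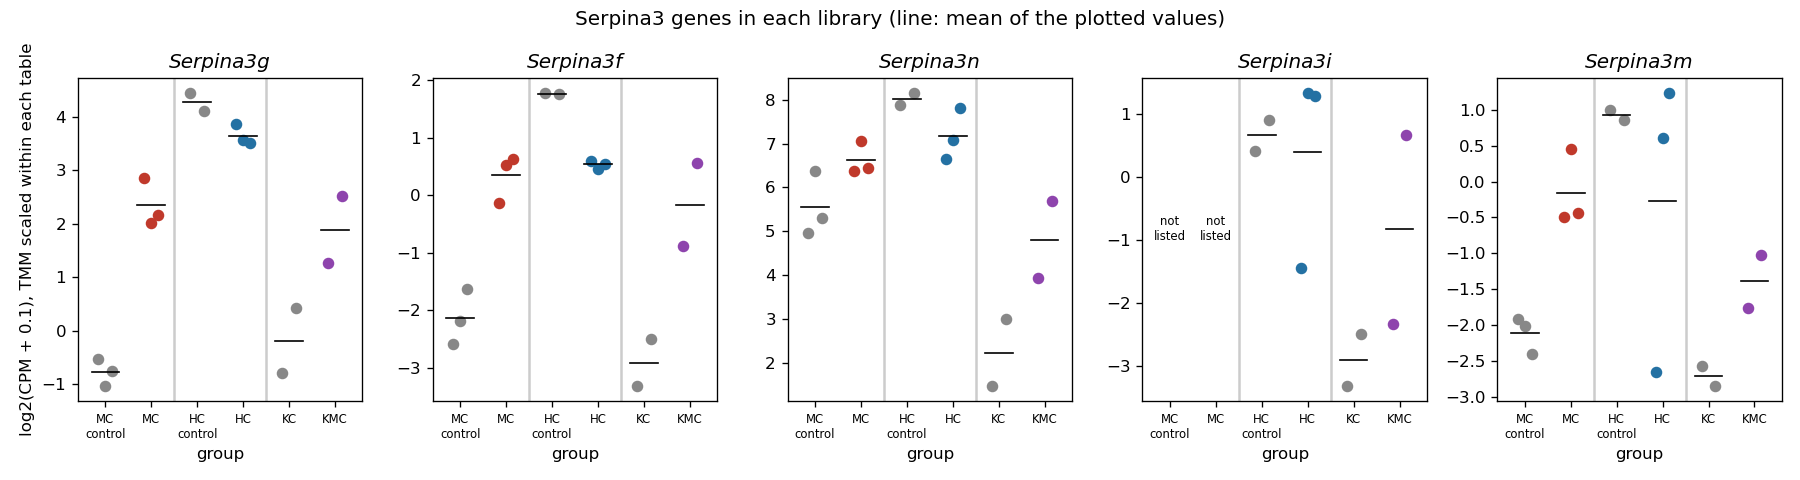
Expression of the 5 Serpina3 genes in each library, as log2(CPM + 0.1) with TMM scaling within each table (y axis), for the 6 groups (x axis); each point is a library and each line the mean of the plotted values. The MC libraries lie above their controls for the 4 listed genes, and the libraries labelled HC lie below theirs for Serpina3g, Serpina3f and Serpina3n, with 1 library labelled HC far below the rest for Serpina3i and Serpina3m.

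In the HC experiment, Serpina3g, Serpina3f and Serpina3n were lower in every library labelled HC than in both controls, and Serpina3i and Serpina3m overlapped between the groups. Serpina3g was at 14.5, 11.8 and 11.2 CPM in the libraries labelled HC and at 21.7 and 17.2 CPM in the controls. The gap between the groups was smaller than in the MC experiment, and the log2 fold change was -0.64 (SE 0.18). Serpina3f was at 1.42, 1.27 and 1.36 CPM against 3.33 and 3.27, with a log2 fold change of -1.29 (SE 0.23). Its libraries were close to each other within each group.

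Serpina3n was at 101, 135 and 225 CPM in the libraries labelled HC and at 237 and 284 CPM in the controls, with a log2 fold change of -0.77 (SE 0.32). The third library labelled HC, the one from males, came close to the controls, and without it the log2 fold change was -1.16. Of all 18407 genes tested, 16.1% were lower in every library labelled HC than in both controls. Without the library from males, Serpina3g was at -0.58 and Serpina3f at -1.31 on the same log2 scale.

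Serpina3i and Serpina3m varied most between the libraries labelled HC. Serpina3i had 9, 76 and 74 counts in the libraries labelled HC and 43 and 69 in the controls. Serpina3m had 2, 45 and 71 counts in the libraries labelled HC and 66 and 67 in the controls. The first library labelled HC was far below the other 2 for both genes, whereas for Serpina3g it was the highest of the 3. Their log2 fold changes, 0.15 (SE 0.79) and -0.54 (SE 0.96), became 0.66 and 0.03 without it. Leaving out other libraries moved them as well: Serpina3i was at -0.20 without the second and at -0.19 without the third library labelled HC, and Serpina3m at -1.30 without the third. As in the MC experiment, these values are a description.

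The difference between the M46 and the HPK1 fold change, which chose Serpina3g, was 4.02 on the log2 scale (SE 0.39), and leaving out any 1 library left it between 3.71 and 4.19. Over the 14884 genes of that fit, Serpina3g was first in the order by p but 65th by size. Just behind it by p came P2ry13 at 2.69, Gpr34 at 2.59 and Tfcp2l1 at -1.93. Serpina3f followed at rank 5 with a difference of 4.47. Serpina3n, at 1.75, was at rank 1268 by p, and Serpina3m, at 3.13, at rank 2338. By size, Capn11 was first at 9.71, so that "most" holds for the order by p only.

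**Figure D2:**
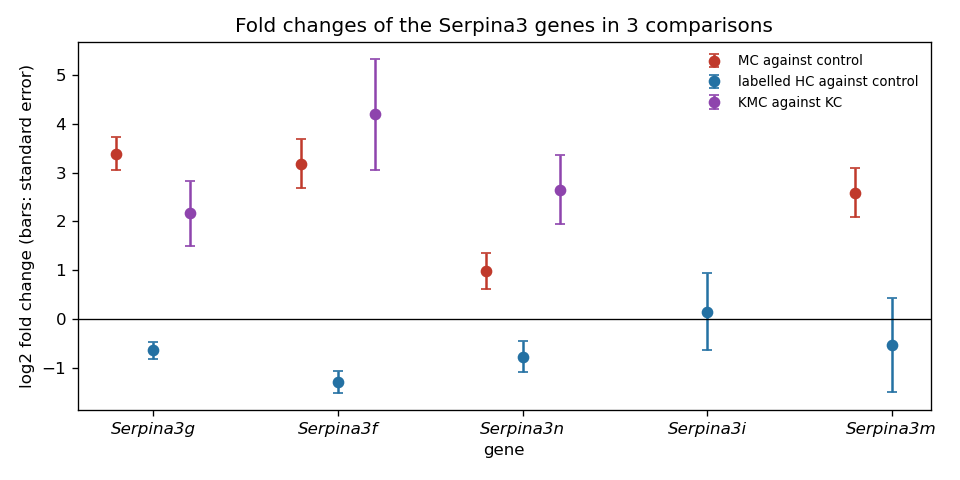
Log2 fold change of each Serpina3 gene (y axis; bars are standard errors from edgeR) by gene (x axis) for MC against control, the libraries labelled HC against control, and KMC against KC. In MC all points lie above 0, from 0.99 to 3.38, and in the libraries labelled HC Serpina3f, Serpina3g and Serpina3n lie below it; Serpina3i in MC and Serpina3i and Serpina3m in KMC have no fitted value in these fits.

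Ordered by level, Serpina3g was highest in the controls of the HC experiment, at 19.5 ± 3.21 CPM (SD, n = 2), followed by the libraries labelled HC at 12.5 ± 1.74 (n = 3), MC at 5.17 ± 1.74 (n = 3), KMC at 3.96 ± 2.34 (n = 2), KC at 0.857 ± 0.538 (n = 2) and the MC controls at 0.492 ± 0.104 (n = 3). In this order, MC and KMC overlapped, and so did KC and the MC controls, whereas the other neighbours did not. Serpina3n had the order HC controls (261 ± 33.5 CPM), libraries labelled HC (153 ± 64.0), MC (101 ± 28.2), MC controls (51.1 ± 27.8), KMC (33.3 ± 25.8) and KC (5.25 ± 3.68). The libraries labelled HC overlapped MC, and the MC controls overlapped KMC. The 2 control groups given cerulein thus differed more from each other than either did from its transgenic group for Serpina3g, and they came from separate tables and ages, and the labels describe their library preparation differently.

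Per kilobase of exon, Serpina3n exceeded the other members in every group. In the HC controls it was at 126 CPM per kb, against 9.24 for Serpina3g, 1.44 for Serpina3f, 1.05 for Serpina3m and 0.674 for Serpina3i. In MC the values were 49.1 for Serpina3n, 2.46 for Serpina3g, 0.525 for Serpina3f and 0.488 for Serpina3m.

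The KMC experiment asked how M46 acts in the tumours, and it was not used to choose the members, so they were tested there. All 5 members were higher in both KMC libraries than in both KC libraries. Of the 15733 genes tested, which include 3 of the members, this held for 34.4%. Serpina3i and Serpina3m were not among them, and Serpina3i had 4 counts in the lower KMC library against 2 in the higher KC library. None of the 3 members tested was called by edgeR's quasi-likelihood test. A call needed a log2 fold change of 1 or more in either direction and an adjusted p no higher than 0.05, and 0.0191% of genes met this. Serpina3n reached the minimum of the filter on low counts in all 4 libraries. Serpina3g reached it in both KMC libraries and in 1 KC library, and Serpina3f in the KMC libraries alone, so that these genes passed by their level in KMC and a count of members that passed is no support. An unadjusted p under 0.05, which 25.6% of all genes had, was found for each of the 3 genes. Serpina3g had 7 and 32 counts in KC and 94 and 472 in KMC, or 0.476 and 1.24 CPM against 2.31 and 5.61. The second KMC library was the highest and the first KC library the lowest. Its log2 fold change was 2.17 (SE 0.67), with an adjusted p of 0.126 by edgeR with Benjamini-Hochberg adjustment. Serpina3n was at 2.65 and 7.85 CPM in KC and at 15.1 and 51.5 CPM in KMC, with a log2 fold change of 2.65 (SE 0.70) and an edgeR adjusted p of 0.104.

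Serpina3f had 0 and 2 counts in KC and 18 and 115 in KMC. Its log2 fold change was 4.19 (SE 1.13), a ratio of 18.3 on the TMM scale. Over the summed library totals, without that scaling, the ratio of counts was 59.6, with an exact 95% counting interval of 16.2 to 497. The KC side of these ratios rests on 2 counts, and the intervals cover counting error only. Serpina3i had 0 and 2 counts in KC and 4 and 125 in KMC, a ratio of 57.8 (15.7 to 483). Serpina3m had 1 and 1 counts in KC and 8 and 33 in KMC, a ratio of 18.4 (4.77 to 157). These 2 genes did not pass the filter on low counts, and without it edgeR gave ratios of 17.3 for Serpina3i and 6.06 for Serpina3m on the TMM scale.

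The test of the members depended on the tool. DESeq2 called Serpina3g and Serpina3n higher, with adjusted p of 0.0188 and 0.000646 by its Wald test, where it called 9.93% of genes higher. It called Serpina3f too, which passed the filter by KMC alone, and gave Serpina3i an adjusted p of 0.0712 and Serpina3m none. Without the first KMC library edgeR called 4 members, these 3 and Serpina3i, and with them 13.6% of all genes, and it called 0 members when any other library was left out. Over all alternatives, the adjusted p of Serpina3g ran from 0.00185 to 0.665, that of Serpina3f from 0.00016 to 0.613 and that of Serpina3n from 9.9e-06 to 0.536. The fold changes of these 3 genes kept their sign in all 36 of these values, but their size moved. On the log2 scale Serpina3g was at 1.40 without the second KMC library and at 3.05 without the second KC library, and Serpina3n at 1.52 and 3.64. Serpina3f was at 3.13 without the second KMC library, and without the second KC library its remaining KC library has 0 counts, which leaves no fold to read. Unscaled library sizes shifted the median of all genes to 1.47 on the log2 scale, against 0.03 with TMM, and put Serpina3g at 3.67.

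Markers of some other cells moved with these values in each experiment, while those of others overlapped or went the other way. The part of these cells in the values was not tested. In whole tissue, fewer cells of a type and less RNA per cell cannot be told apart. Ptprc, which encodes the leukocyte marker CD45, was at 38.3 to 52.4 CPM in MC against 8.40 to 19.8 in their controls, at 35 to 62.5 in the libraries labelled HC against 72.5 and 116, and at 33.4 and 58.5 in KMC against 3.13 and 10.1 in KC. Its log2 fold changes, 1.66, -0.95 and 2.78, had the signs of those of Serpina3g. Of the T cell markers, 9 of 9 listed were higher in all MC libraries than in all controls, with a summed level of 9.59 to 15.1 CPM against 2.38 to 3.87. In KMC this held for 10 of 10 (15.4 to 17.0 CPM against 2.86 to 4.41), and in the libraries labelled HC all 10 overlapped (26.8 to 70.4 against 48.5 to 92.8). Of all genes tested, 10.9% were higher without overlap in MC and 34.4% in KMC. In the libraries labelled HC 16.1% were lower without overlap. These shares stand beside the marker counts here and below.

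Of 10 macrophage markers, 5 were higher without overlap in MC (summed level 1142 to 1635 CPM against 559 to 1397), 7 were lower in the libraries labelled HC (1718 to 2601 against 2667 to 4549) and 10 were higher in KMC (999 to 3097 against 315 to 366). The neutrophil markers, 6 of 8 listed in the MC table and all 8 in the others, summed to 25.7 to 42.8 CPM in MC against 7.32 to 54.9, to 51.1 to 64.3 in the libraries labelled HC against 86.8 to 114, and to 19.2 to 38.8 in KMC against 1.84 to 5.45, and Ly6g was at 0 in the HC controls and in KC. All 9 fibroblast markers were higher without overlap in KMC (2212 to 6279 CPM against 478 to 935), while 14 of 16 acinar genes were lower without overlap (median log2 fold change -2.02). The share of all genes lower without overlap in KMC is not given. In MC the fibroblast sum was 1980 to 2889 CPM against 1018 to 2430, with 1 of 9 markers higher without overlap, and in the libraries labelled HC it was 4906 to 10322 against 9809 to 11128, with 3 of 9 lower without overlap. The acinar genes had a median log2 fold change of -0.74 in MC, and of -0.13 in the HC table. The hepatocyte markers, 8 of 10 listed in the MC table and all 10 in the others, summed to 40.6 to 66.8 CPM in MC against 30.5 to 58.9, to 82.7 to 135 in the libraries labelled HC against 80.8 to 93.2, and to 23.8 to 64.7 in KMC against 66.2 to 76.2, with Cyp3a11 at 0 in both KMC and KC. The 9 endothelial markers summed to 150 to 172 CPM in MC against 123 to 161, and the 8 ductal ones to 1401 to 1972 against 1153 to 1911. In the libraries labelled HC the endothelial sum was 293 to 403 against 422 to 534 and the ductal sum 5532 to 6747 against 4958 to 5240, and in KMC they were 125 to 211 against 108 to 115 and 619 to 877 against 458 to 534.

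Set against Ptprc in the same library, the members were read on a further scale. Serpina3g had 0.187, 0.0964 and 0.0839 counts per Ptprc count in MC and 0.0444, 0.0195 and 0.0588 in the controls, so that every MC library was higher also on this scale. These control ratios rest on 18, 13 and 11 counts of Serpina3g. Its MC values are part of what chose it, so this is a description, and the share of all genes that do likewise is not given. In the libraries labelled HC the ratio was 0.232, 0.336 and 0.230, against 0.187 and 0.237, and the groups overlapped. In KMC it was 0.0692 and 0.0959, below the 0.152 and 0.123 of KC, the reverse of the order in CPM. With 2 libraries a group an exact permutation test (two-sided) cannot go below 0.333, which is the p of this difference.

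Serpina3f per Ptprc count was 0.0212, 0.0327 and 0.0278 in MC and 0.00494, 0.00602 and 0.0267 in the controls, which overlapped. It was 0.0227, 0.0363 and 0.0278 in the libraries labelled HC against 0.0286 and 0.0452, and there too the groups overlapped. In KMC it was 0.0132 and 0.0234, above the 0 and 0.00769 of KC, which rest on 0 and 2 counts.

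Serpina3n per Ptprc count overlapped in all 3 experiments. It was 1.67 to 3.27 in MC against 2.33 to 4.67, 1.61 to 4.59 in the libraries labelled HC against 2.04 and 3.92, and 0.453 and 0.881 in KMC against 0.848 and 0.781. Serpina3g counts as a percent of Serpina3n counts were 8.61%, 2.95% and 5.04% in MC and 1.91%, 0.467% and 1.26% in the controls, without overlap, which is likewise a description. In KMC this ratio was 15.3% and 10.9%, against 17.9% and 15.8% in KC.

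**Figure D3:**
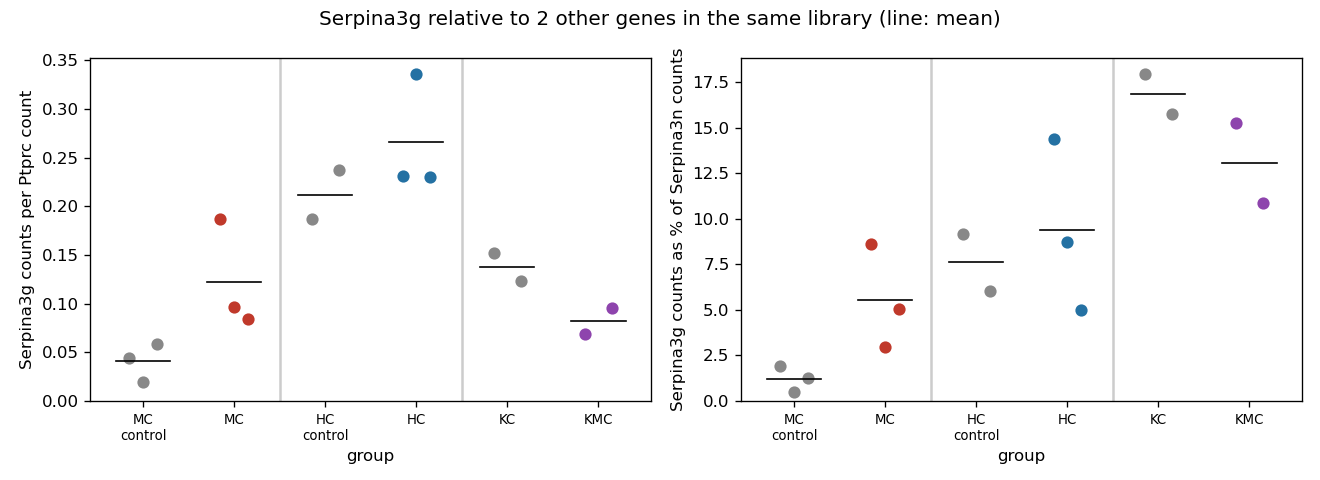
Serpina3g counts per Ptprc count (left, y axis) and as a percent of Serpina3n counts (right, y axis) in each library (points) of the 6 groups (x axis), with the group mean as a line. Both ratios are higher in every MC library than in its controls, overlap between the libraries labelled HC and their controls, and are lower in both KMC libraries than in KC.

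Genes of the same row did not move as one. In the first library labelled HC, the pseudogene Serpina3h had 12 counts, against 199 and 197 in the other 2 and 23 and 91 in the controls. Serpina3i and Serpina3m were low there too, as given above, and Serpina3g and Serpina3f were not. Clade A serpins outside the Serpina3 row were also lowest in that library. Among them, Serpina9 had 15 counts there against 96 and 83 in the other 2, and Serpina11 had 11 against 102 and 57. The second KMC library had 355 counts of Serpina3h and the first 15, while Serpina3i had 125 and 4. Per Serpina3g count, Serpina3i was at 0.0183 in the first library labelled HC and at 0.205 and 0.209 in the other 2, and at 0.265 in the second KMC library and 0.0426 in the first. Serpina3m per Serpina3g count was at 0.0851 in the first KMC library and 0.0699 in the second, so it did not follow Serpina3h there. Serpina3f kept within 0.0978 to 0.121 per Serpina3g count in the libraries labelled HC.

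**Figure D4:**
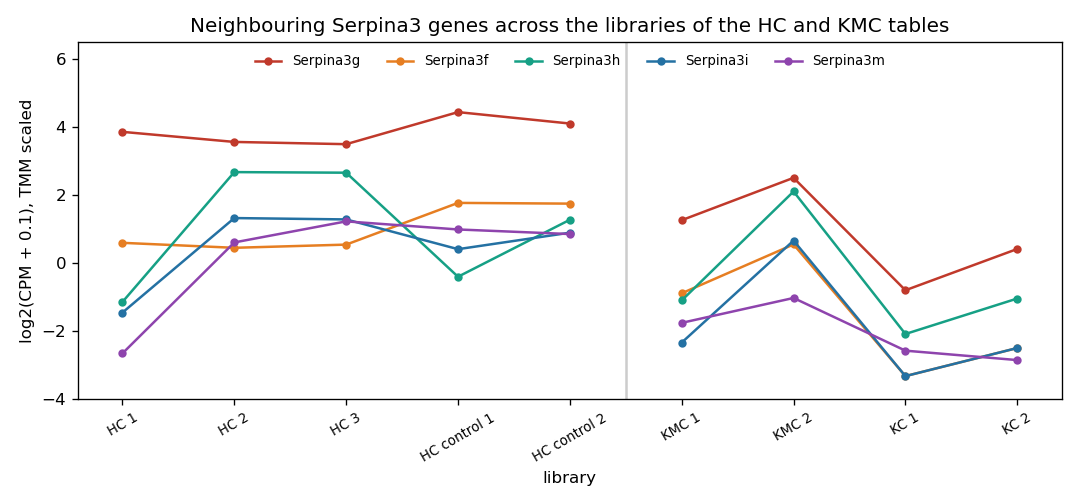
Serpina3g, Serpina3f, Serpina3h, Serpina3i and Serpina3m as log2(CPM + 0.1), TMM scaled (y axis), in each library of the HC and KMC tables (x axis); lines join the values of a gene within a table and imply no order. Within the HC table, Serpina3h, Serpina3i and Serpina3m are lowest in the first library labelled HC, where Serpina3g is the highest of the 3.

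The other genes of the pathway came from 5 lists: 20 further clade A serpins, 26 other serpins, 22 target proteases, 26 inducers and their signalling partners, and 24 acute phase genes. In MC, 57 of the 73 genes tested had a positive log2 fold change, and the median was 0.42, against -0.02 over all genes. None was called by edgeR, which called 0.0% of all genes here. An unadjusted p under 0.05 was found for 22 of them, all higher in MC, and for 14.7% of all genes, and DESeq2 called 9, all higher, where it called 3.19% of all genes. Without the second MC control edgeR called 11 list genes, and without the first MC library 2. Among the inducers, Socs1, a feedback inhibitor of cytokine signals, was at 2.66 ± 0.519 CPM in MC against 0.945 ± 0.147 (n = 3 each; log2 fold change 1.49, SE 0.27, edgeR adjusted p 0.0865), whereas Il6st, the shared receptor of the interleukin-6 family, was at 163 ± 29.4 against 151 ± 14.1.

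Of the proteases, granzyme A (Gzma) was at 1.51 ± 0.652 CPM in MC against 0.266 ± 0.0333 (log2 fold change 2.48), and proteinase 3 (Prtn3) at 0.494 ± 0.138 against 0.108 ± 0.0239. Cathepsin L (Ctsl), the most abundant protease of the list, overlapped between the groups, at 1588 ± 230.0 against 1947 ± 564. Of the acute phase genes, haptoglobin (Hp), which binds free haemoglobin, had the largest log2 fold change, 3.72 (SE 0.73, edgeR adjusted p 0.0945), at 22.3 to 126 CPM against 2.12 to 9.34. Complement C3 was at 695 ± 161 against 336 ± 171, and Lrg1 at 120 ± 19.0 against 78.0 ± 16.8. Of the clade A serpins, Serpina6, which carries corticosteroids in plasma, was at 3.04 ± 1.70 against 0.768 ± 0.0933, and Serpina1b, an alpha-1-antitrypsin copy, at 0.929 ± 0.693 against 0.0848 ± 0.0827. Serpina10, an inhibitor of factor Xa with protein Z, was at 50.3 ± 21.8 against 46 ± 15.1. Of the other serpins, Serpinb2, an inhibitor of plasminogen activators, was at 2.82 ± 2.77 against 0.270 ± 0.156 and Serpine2 at 31.9 ± 3.31 against 18.5 ± 8.81, while Serpini2, a serpin of the pancreas, was at 266 ± 76.8 against 298 ± 157.

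In the libraries labelled HC, 31 of 94 list genes tested had a positive log2 fold change, and the median was -0.18, against 0.00 over all genes. edgeR called 1 of them, where it called 0.565% of all genes, and 24 had an unadjusted p under 0.05, 7 of them higher, against 15.9% of all genes. The gene called was Mcpt2, a chymase of mucosal mast cells, which rose to 428 ± 50.1 CPM from 152 ± 41.8 (log2 fold change 1.49, SE 0.21, edgeR adjusted p 0.0454). It was not called when the second or the third library labelled HC, or either control, was left out. The related Mcpt1 was at 96.4 ± 17.5 against 55.7 ± 8.18. Serpine2, an inhibitor of thrombin and urokinase, was at 48.7 ± 16.1 against 149 ± 38.3 (log2 fold change -1.62, edgeR adjusted p 0.0739), and Serpina6 had 0, 3 and 1 counts against 12 and 35. Serpinb5 was at 40.7 ± 6.63 against 26.3 ± 2.72, and Serping1, the C1 inhibitor, at 810 ± 122 against 930 ± 6.39. Serpina3a, another copy of the row, had 0, 34 and 12 counts against 0 in both controls.

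Of the inducers, Il6 was at 0.856 ± 0.0625 CPM in the libraries labelled HC against 1.77 ± 0.945, and Osmr, the oncostatin M receptor, at 70.6 ± 13.6 against 101 ± 6.61. Il6st was at 447 ± 71.5 against 489 ± 28.0. Of the acute phase genes, fibrinogen alpha (Fga) was at 0.601 ± 0.128 against 1.37 ± 0.196, ceruloplasmin (Cp) at 239 ± 22.1 against 356 ± 79.7, and C3 at 2442 ± 696 against 3261 ± 905. Cathepsin B (Ctsb), a protease that Serpina3g inhibits, was at 1001 ± 67.5 against 1207 ± 210.0.

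**Figure D5:**
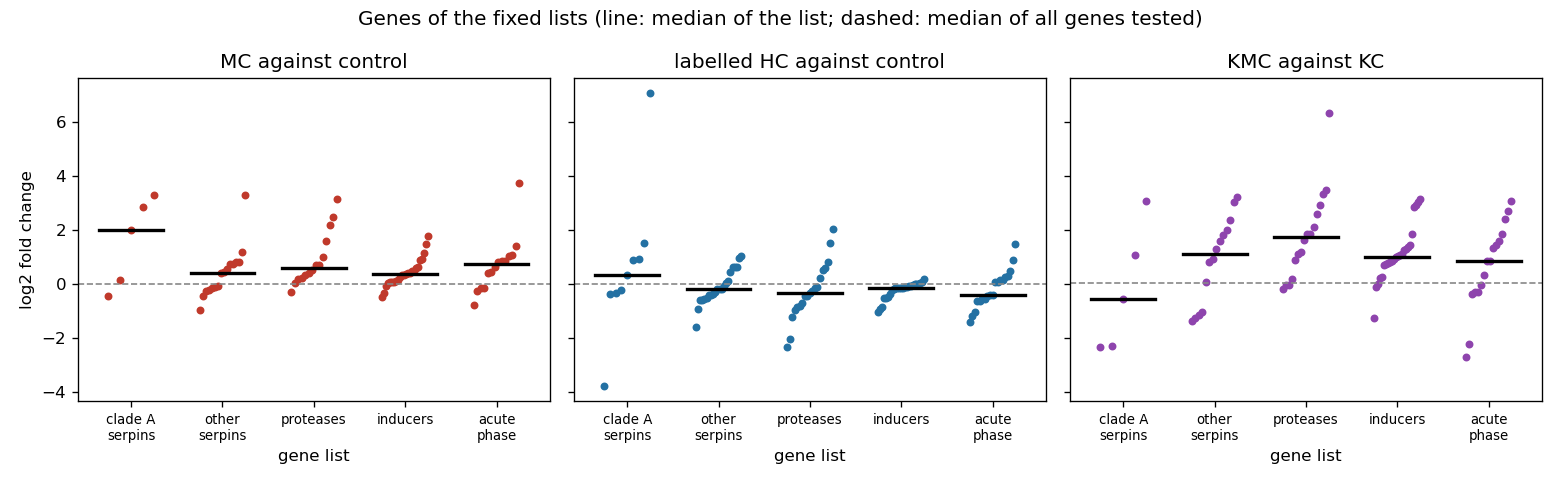
Log2 fold change (y axis) of each gene of the 5 lists (x axis; members left out) in MC against control, the libraries labelled HC against control and KMC against KC; each point is a gene, the line the median of its list and the dashed line the median of all genes tested. In MC all 5 list medians are above that of all genes; in the libraries labelled HC the proteases, inducers, acute phase genes and other serpins have medians below it, from -0.42 to -0.15; in KMC the clade A serpins alone have a median below it.

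In KMC, 56 of 75 list genes tested had a positive log2 fold change, and the median was 1.05, against 0.03 over all genes. edgeR called none. An unadjusted p under 0.05 was found for 37, 32 of them higher, and for 25.6% of all genes, and DESeq2 called 25 higher and 5 lower, where it called 13.8% of all genes. Without the first KMC library edgeR called 34 list genes, and without the second 1. Cathepsin S (Ctss), a protease of antigen-presenting cells, was at 164 ± 130.1 CPM against 16.2 ± 0.218 (n = 2 each; log2 fold change 3.33, SE 0.66, edgeR adjusted p 0.0796). Cathepsin K (Ctsk), a collagenase, was at 17.9 ± 11.4 against 3.0 ± 0.578, and Ctsb at 566 ± 285 against 252 ± 81.0. Among the inducers, Il1r1, the interleukin-1 receptor, was at 30.9 ± 13 against 8.66 ± 2.53 and Socs1 at 2.45 ± 1.03 against 0.300 ± 0.232, whereas Lifr, the leukaemia inhibitory factor receptor, was at 60.6 ± 12.1 against 145 ± 62.7.

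The acute phase genes went both ways in KMC. Lbp, which binds bacterial lipopolysaccharide, was at 20.5 ± 8.82 CPM against 3.13 ± 0.770, and C3 at 733 ± 154 against 205 ± 103, while the metallothionein Mt2 was at 3.83 ± 0.444 against 25.3 ± 5.09 (log2 fold change -2.72, edgeR adjusted p 0.0796). Of the clade A serpins, Serpina3h was at 0.368 and 4.22 CPM in KMC against 0.136 and 0.387 in KC, and Serpina10 at 9.39 ± 2.82 against 48.1 ± 50.9. Serpinf1, which encodes PEDF, was at 49.9 ± 31.3 against 12.5 ± 0.488, Serpinb6b at 11.9 ± 6.77 against 3.41 ± 0.488, and Serpini2 at 161 and 870 CPM against 1216 and 1248.

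The genes whose pattern was most like that of Serpina3g were found by Pearson's r over the 15 libraries, on log2(CPM + 1) centred within each experiment, among 12280 genes. These were Gimap6 (0.936), Kbtbd11 (0.931), Gimap1 (0.931), Gimap3 (0.927) and Ptprcap (0.927). The r of Serpina3g was 0.888 with Serpina3f, 0.867 with Ptprc, 0.731 with Serpina3n and 0.650 with Serpina3m. Serpina3n was most like Rrm1 (0.969), F13a1 (0.962), Cysltr1 (0.962), C1qtnf6 (0.960) and Aebp1 (0.955), and its r with Ptprc was 0.870. No gene was thus among the 5 nearest of both. The libraries of an experiment share their group difference, so these values describe the pattern only.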

How the data were processed

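RNA from pancreas was sequenced in 15 libraries, each a pool of 3 mice. Per the labels, the first 6 libraries were made by standard Illumina protocols and the other 9 with a stranded mRNA kit. The submitters' processing notes name bcl2fastq 2.17.14, STAR 2.6.1a, HTSeq 0.6.1 and DESeq2, with mm10. The authors deposited raw counts per gene in 3 tables, in which 49326 of 49585 identifiers, or 15164 of 15175 in the MC table, matched a symbol of the annotation. A further table holds the authors' own comparison of MC and control, with fold changes and p-values, and was not used.

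The counts were fitted by edgeR 4.0.16 (R 4.3.3; quasi-likelihood test, TMM, filter on low counts, Benjamini-Hochberg adjustment) within each table. Calls used the thresholds of the study, an adjusted p up to 0.05 with a log2 fold change of 1 or more either way. Depth was 29766575 to 38745907 counts a library. No label says which mice were pooled with which, so p-values measure the spread between pooled libraries. Alternatives were DESeq2 1.42.0, other scalings, no filter, the replicate number as a block, a joint fit and each library left out, and, added after the data were seen, the newer edgeR fit. The members and the lists were chosen with earlier results of these data known. The text names all 5 members and, of each list, the genes called, the 2 with the smallest p and the most abundant. A gene that this rule names and the shared tumour allele are not reported here. Sequences came from GENCODE transcripts and RefSeq promoters of GRCm38. Serpina3m was not in the promoter table.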

Additional observations from a re-analysis of the deposited data

Results flagged for a closer look

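Of the members and list genes named in the text, 5 were marked by a rule over both experiments. All 3 MC libraries lay above all of their controls, while all 3 libraries labelled HC lay below both of theirs. The values are the M46 minus the HPK1 log2 fold change, and no test of these differences is given here. Serpina3f was at 3.18 for MC and at -1.29 for the libraries labelled HC, a difference of 4.47. For Serpina3g they were 3.38 and -0.64, a difference of 4.02. For Serpina3n they were 0.99 and -0.77, a difference of 1.75. These 3 genes were chosen from this contrast, so the pattern adds nothing to that choice. Among the list genes, Serpina6 had 1.97 and -3.80, a difference of 5.73, with 0, 3 and 1 counts in the libraries labelled HC. Serpine2 had 0.79 and -1.62, a difference of 2.40. Ptprc, at 1.66 and -0.95, and Map4k1 are not in the lists and met the same rule. Their part was not tested. Over all 13820 genes tested in both fits, 541 (3.91%) met this rule, and of the members and list genes 8 of 76 did. Those 8 include Serpina3f, Serpina3g and Serpina3n, which were chosen from this contrast, so the count is no support. No group held the 4 libraries that a check for single outlying samples needs.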

How the results depend on the processing

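The number of Serpina3 members called in KMC against KC was 0 with edgeR, and 3 with DESeq2, with unscaled library size, with library size without acinar genes, with the replicate block and in one fit over both tables, and 0 to 4 with each library left out, 4 being reached without the first KMC library, where 13.6% of all genes were called. These counts include Serpina3f, which passed the filter by its KMC libraries alone. List genes called there numbered 0, against 30 with DESeq2, 50 with unscaled library size, 45 without acinar genes, 30 with the replicate block, 31 in one fit and 0 to 34 with a library left out. In MC they numbered 0, against 9 with DESeq2 and 0 to 11 with a library left out, 11 without the second control and 2 without the first MC library. In the libraries labelled HC they numbered 1, against 4 with DESeq2, 0 without acinar genes, 5 without a filter, 3 with the replicate block, 0 in one fit and 0 to 4 with a library left out; Mcpt2 was thus called in some settings only. Members with a positive fold change in the libraries labelled HC numbered 1, against 0 with the block and 0 to 2 with a library left out. In MC all 4 stayed positive in 13 of 13 settings.

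Over all genes, calls in KMC numbered 3, against 2130 with DESeq2, 4714 and 3387 with the 2 library sizes, 9 without a filter, 2464 with the block, 3230 in one fit and 0 to 2312 with a library left out. In MC they numbered 0, against 475 with DESeq2, 1 with unscaled library size and 0 to 718. In the libraries labelled HC they numbered 104, against 482, 55 without acinar genes, 395 without a filter, 339 with the block, 1 in one fit and 0 to 379. For the difference they numbered 325, against 1011 with DESeq2, 98 and 108 with the library sizes, 0 with the block and 0 to 1584. The cause was not tested.

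Pairing by replicate number was read from the correlation of same-numbered libraries, as deviations from their group means. It was 0.051 in KMC and KC, 0.067, 0.296 and -0.297 in MC, and 0.189 and 0.170 in the HC table. In MC not every library was nearest to its own number. Where a group has 2 libraries, the other number gives the same value with its sign changed, so KMC and HC cannot decide this. With the replicate block the difference for Serpina3g kept its sign. Where a group is left with 1 library, that library is assumed to vary like the other group. With 0 to 5 counts in some control libraries, depth limits Serpina3f, Serpina3i and Serpina3m.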
